A study of Rattus norvegicus and Homo sapiens with 12 samples.

Results

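The RNA levels of 10 genes that act at the mitochondrial membranes were compared between parental and MSC-selected DU145 cells, a human prostate cancer (PCa) cell line. They are the mitophagy receptors BNIP3 and BNIP3L, the fission genes MFF and DNM1L, the fusion genes MFN1, MFN2 and OPA1, and the channels VDAC1, VDAC2 and VDAC3. They were taken by symbol and Ensembl identifier from a table of 60107 listed genes, and all 10 passed the filter on low counts. F0 DU145 is the parental line. F2 DU145 is the same line recovered after repeated 72 h exposures to conditioned media (CM) from purchased human mesenchymal stem cells (MSCs). The sample labels give 2 rounds of exposure, and the description of the series gives 3 rounds with 48 h of recovery between them. Both populations were grown in DMEM with 10% FBS. There were 3 samples of each, 6 of the 12 in the series, and the other 6 are of a rat line and were not analysed here. The sources used here do not say whether the 3 F2 samples came from separate selections, so the p-values measure the spread between these samples only.

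Mitochondria are removed by mitophagy, in which receptors on the outer membrane or ubiquitin placed on it recruit the autophagosome. Fission and fusion set the size of the organelles: the dynamin DNM1L is recruited to the outer membrane by adaptors such as MFF and constricts it, while the mitofusins MFN1 and MFN2 join outer membranes and OPA1 joins inner ones. The VDAC proteins are the main pores of the outer membrane, through which metabolites and calcium pass, and hexokinases and regulators of apoptosis bind to them.

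RNA was profiled with QuantSeq, a 3′ method that makes 1 fragment per transcript near the poly(A) tail. Levels are therefore given as CPM, gene counts scaled to a common library total after TMM normalization, and were not divided by transcript length. Gene counts per library ranged from 16029876 to 16479239 in F0 and from 15879480 to 16217918 in F2. The 10 genes had between 609 and 6536 counts in each library. RNA encoded by the mitochondrial genome took 5.71% to 6.0% of the counts in F0 and 10.2% to 10.6% in F2. Reads outside genes were 9.60% to 10.0% of uniquely placed reads in F0 and 11.3% to 11.9% in F2. The part of both shares in the differences below was not tested. The 10 genes gave the same 5 calls after mitochondrially encoded genes were left out. That fit cannot test it, because TMM sets the scale with and without those genes. Of 20 MSC markers, 11 had at most 3 counts in every library, and THY1, VCAM1, CXCL12, SPARC, LUM and POSTN had 0. The 17 MSC markers with a mean under 10 CPM in F0 were summed with libraries scaled by size alone, without TMM. The sums were 16.8 to 19.3 CPM in F0 and 15.5 to 16.0 CPM in F2. That scale sets F2 lower against F0 than TMM does. NT5E, TAGLN and MCAM were above 10 CPM. Of the 7 tested MSC markers 2 were higher in F2, NT5E (log2 fold change 0.49) and NES (0.49), and 2 were lower, TAGLN (−0.31) and FN1 (−0.52). TAGLN overlaps PCSK7 on the opposite strand and is uncertain, as the use of strand in counting is not given. Of 11 epithelial and prostate markers, 7 reached a mean of 10 CPM in F0, EPCAM and 4 keratins among them. Of these 7, KRT19 (log2 fold change 0.67), KRT8 (0.24), EPCAM (0.22) and KRT18 (0.20) were called higher in F2, and CDH1 (−1.27) and KRT7 (−0.24) were called lower. The part of these marker differences in the results was not tested. KRT5 had 0 counts in all libraries, and KLK3 and TMPRSS2 had at most 2 in any library. A level is an average over a culture, so fewer cells that express a gene and less RNA per cell cannot be told apart.

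QuantSeq reads come from near the 3′ ends of transcripts, so an annotated 3′ end is shown for the genes the results turn on. The coding transcripts of BNIP3 have 1 annotated end, those of VDAC1 have 2, those of VDAC2 have 3 and those of MFF have 8, and which of them were used was not measured. The last 30 bases of 1 main transcript per gene are shown for BNIP3, MFF and VDAC1, which carried the clearest differences, and for VDAC2. VDAC2 and VDAC3 are paralogs of VDAC1, and neither passed the test. The bases are written 5′ to 3′ on the transcript strand, with the poly(A) signal in capitals.
BNIP3: gacattttATTAAAaatgaaacaagtttga
MFF: agtgtatttAATAAActgtcaaccaaagaa
VDAC1: aaaaaacttgAATAAAatattgaaacctca
VDAC2: acaaattatgAATAAAacaagtatacataa
On GRCh38 with GENCODE release 29, these are chr10:131966455-131966484 on the minus strand for BNIP3, chr2:227357804-227357833 on the plus strand for MFF, chr5:133971915-133971944 on the minus strand for VDAC1 and chr10:75231419-75231448 on the plus strand for VDAC2. All lie in the 3′ UTR of the last exon. The search was for AATAAA and, where that was absent, ATTAAA, on the transcript strand. The same window of the main transcript held AATAAA in 50.6% of 19666 coding genes and ATTAAA without it in 12.1%. No other gene's exon overlapped the last exon of the main transcript in any of the 10 genes, and their other last exons were not checked. None of the stretches of 101 bases (the read length) in the final 300 bases of their coding transcripts occurred in a transcript of another gene. Pseudogenes named after the 10 genes had few counts. BNIP3 has the most, and 3 of its 44 had counts, 96 in all 6 libraries together against 11223 for BNIP3 itself (0.855%).

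In F2, 1 of the 10 genes rose and 4 fell at an adjusted p under 0.05 (edgeR quasi-likelihood test, Benjamini-Hochberg over 14316 genes). BNIP3 rose by 44.2%. MFF fell by 23.8%, VDAC1 fell by 16.7%, MFN1 fell by 15.7% and BNIP3L fell by 8.93%. Among all tested genes, 18.2% passed the same threshold, 9.49% higher and 8.67% lower in F2. Among the 5403 genes with a mean of at least 30 CPM, a level that all 10 genes reached, 27% passed. F0 and F2 libraries did not overlap in 8 of the 10 genes, against 34% of all tested genes, and none of the 10 changed 2-fold. The median standard error of the log2 fold change was 0.046 for the 10 genes and 0.10 for all tested genes, so small differences were easier to detect here than in most genes. Leaving out F0 replicate 2, F0 replicate 3 or F2 replicate 1 left 3 of the 5 calls each time, BNIP3, MFF and VDAC1.

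**Figure D1:**
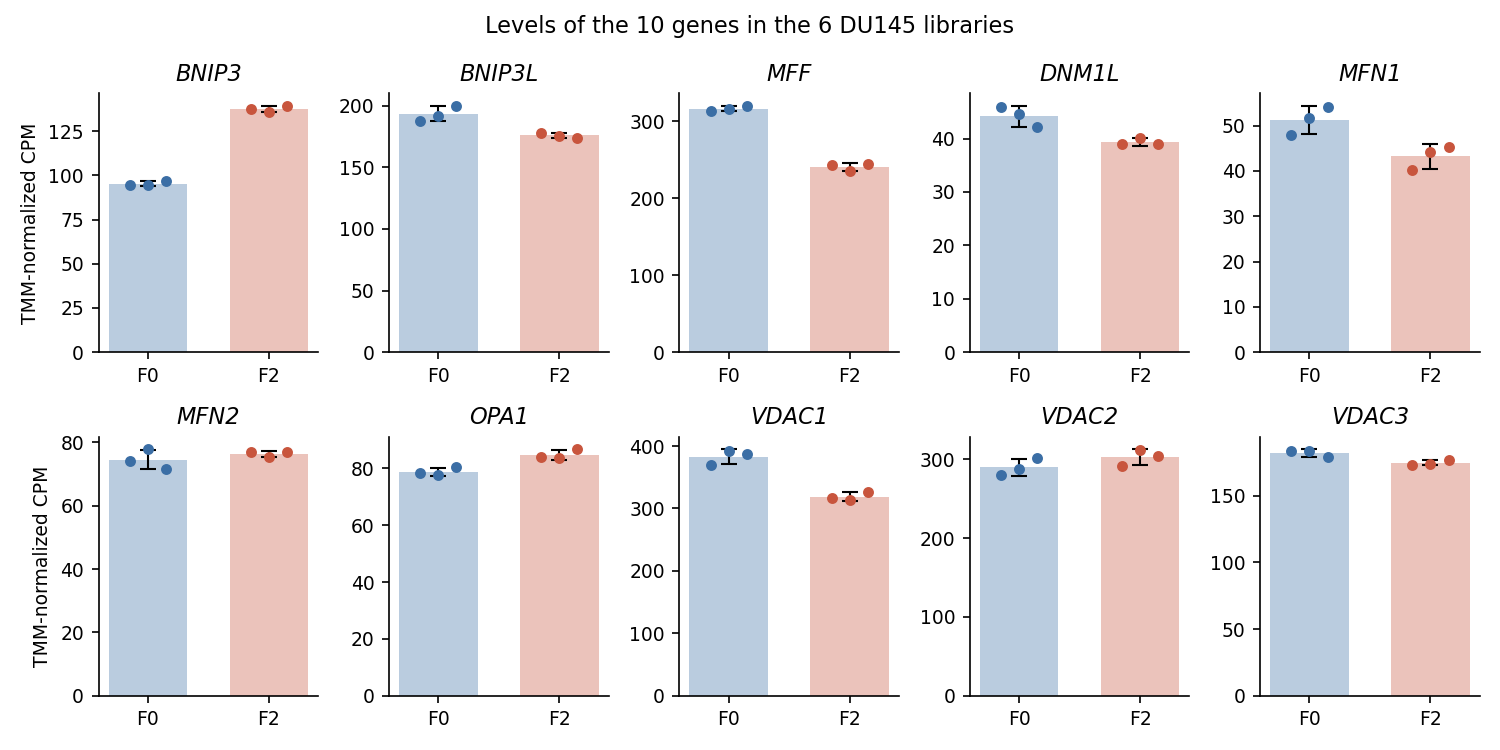
TMM-normalized CPM of the 10 genes in F0 (blue) and F2 (red) DU145; points are the 3 libraries of each population, bars are means and error bars are SDs, and each panel has its own axis from 0. BNIP3 stands at 94.3 to 97.0 CPM in F0 and 136 to 139 CPM in F2, MFF and VDAC1 are lower in every F2 library, and MFN2 and VDAC2 overlap between populations.

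BNIP3 (ENSG00000176171, chr10:131966455-131982013, minus strand) encodes an outer membrane protein that binds LC3 and GABARAP proteins and is a known target of the hypoxia-inducible factor HIF-1. Its level was 94.3, 94.6 and 97.0 CPM in F0 and 137, 136 and 139 CPM in F2. Every F2 library was far above every F0 library, and the libraries within a population were close together. The mean went from 95.3 ± 1.51 to 137 ± 1.80 CPM (SD, n = 3). The log2 fold change was 0.53 with a standard error of 0.047 and a 95% interval of 0.43 to 0.63 (adjusted p = 1.54e-07). A rise at least this large was found in 5.11% of all tested genes. It stayed past the threshold in all 13 other settings, with 0.52 to 0.54 when 1 library was left out and 0.44 when libraries were scaled by their size alone.

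BNIP3L (ENSG00000104765, chr8:26382898-26505636, plus strand), also called NIX, is the closest relative of BNIP3 and the receptor that clears mitochondria from maturing red cells. It moved the other way, with 188, 192 and 200 CPM in F0 and 178, 176 and 174 CPM in F2. All F2 libraries were below all F0 libraries, but the gap between the lowest F0 and the highest F2 library was narrower than the spread among the F0 libraries. The log2 fold change was −0.14 with a standard error of 0.045 and an interval of −0.23 to −0.040 (adjusted p = 0.044). This was the weakest of the 5 calls. It remained past the threshold in 1 of 6 fits that left out a library, the one without F0 replicate 1, and without any other library the adjusted p lay between 0.058 and 0.157. DESeq2 gave an adjusted p of 0.069, and edgeR without the filter on low counts gave 0.074.

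The number of BNIP3 counts per BNIP3L count in the same library, which no scaling between libraries can change, was 0.502, 0.493 and 0.485 in F0 and 0.771, 0.772 and 0.80 in F2. The ratio was thus 0.493 ± 0.00813 in F0 and 0.781 ± 0.0163 in F2 (SD, n = 3), and BNIP3L remained the more abundant of the pair in all 6 libraries. Together the pair had 289 ± 7.55 CPM in F0 and 314 ± 2.10 CPM in F2.

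**Figure D2:**
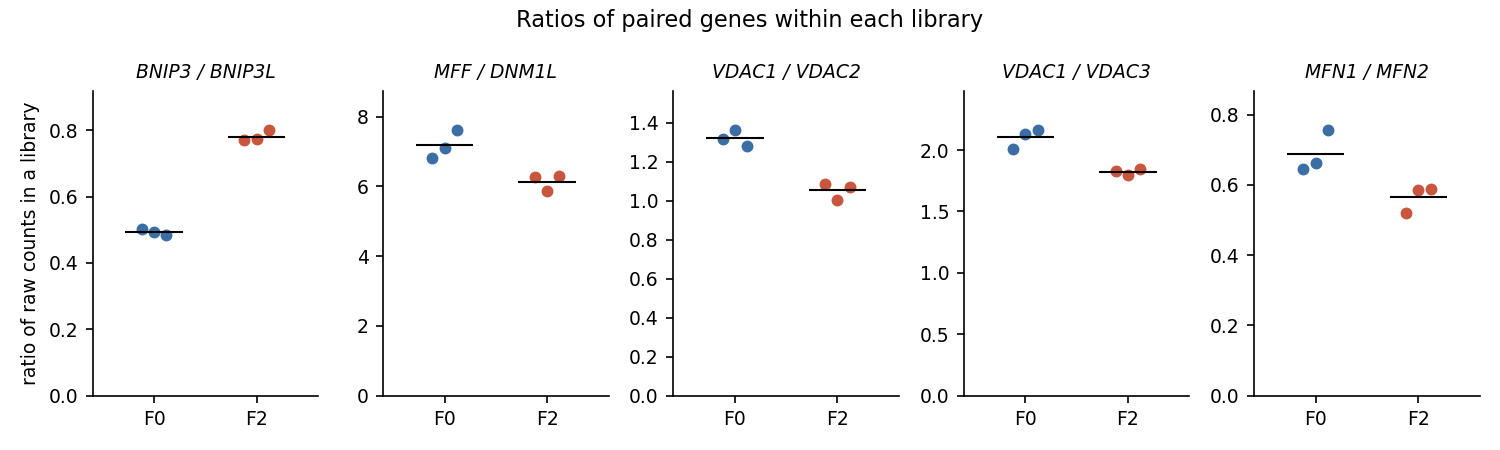
Ratios of raw counts of 2 genes within each library; points are the 3 F0 (blue) and 3 F2 (red) libraries, lines are means and each axis starts at 0. BNIP3 to BNIP3L rises from 0.493 to 0.781, and VDAC1 to VDAC2 goes from 1.32 to 1.05. F0 and F2 do not overlap in any of the 5 ratios, but each ratio holds a gene that does not overlap by itself. The share of other gene pairs without overlap was not measured.

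MFF (ENSG00000168958, chr2:227325151-227357836, plus strand) encodes a tail-anchored outer membrane adaptor that recruits DNM1L. Its level was 313, 316 and 320 CPM in F0 and 244, 235 and 244 CPM in F2. The populations were well apart, and this was the largest decrease among the 10 genes on both the CPM and the log2 scale. The log2 fold change was −0.39 with a standard error of 0.043 and an interval of −0.48 to −0.30 (adjusted p = 1.83e-06). A fall at least this large was found in 7.73% of all tested genes. MFF kept its call in all 13 other settings, between −0.40 and −0.37 when a library was left out.

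DNM1L (ENSG00000087470, chr12:32679200-32745650, plus strand), the dynamin that constricts the organelle, had the lowest level of the 10 genes. It had 45.9, 44.5 and 42.1 CPM in F0 and 38.9, 40.1 and 38.9 CPM in F2. The F2 libraries lay below the F0 libraries without overlap, but the log2 fold change of −0.17 (standard error 0.065, interval −0.30 to −0.032) did not pass the test, with an adjusted p of 0.082. It also missed the threshold with any 1 of the 6 libraries left out. Of 13 other settings it passed in 1, where the library total alone set the scale (−0.26, adjusted p = 0.0068). The count of MFF per count of DNM1L was 6.82, 7.10 and 7.60 in F0 and 6.26, 5.86 and 6.29 in F2, lower in every F2 library. The summed level of the fission pair was 361 ± 1.48 CPM in F0 and 280 ± 4.47 CPM in F2, a difference of −22.2% that is nearly all MFF.

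MFN1 (ENSG00000171109, chr3:179347692-179394931, plus strand) encodes a mitofusin that tethers and fuses outer membranes. It had 47.9, 51.6 and 54.1 CPM in F0 and 40.1, 44.2 and 45.3 CPM in F2. The populations did not overlap, although libraries within each differed by more, relative to the level, than in BNIP3 or MFF. The log2 fold change was −0.25 with a standard error of 0.069 and an interval of −0.39 to −0.10 (adjusted p = 0.016). The call was lost without F0 replicate 2 (adjusted p = 0.069), F0 replicate 3 (0.079) or F2 replicate 1 (0.115) and held in the other 10 of 13 settings.

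MFN2 (ENSG00000116688, chr1:11980181-12013514, plus strand), the mitofusin that also tethers mitochondria to the endoplasmic reticulum, had 74.2, 77.8 and 71.7 CPM in F0 and 77.0, 75.4 and 77.0 CPM in F2. The F2 libraries fell inside the F0 range. Its log2 fold change of 0.037 had an interval of −0.076 to 0.15 (adjusted p = 0.693), and scaling to the library total alone turned the sign to −0.053 (adjusted p = 0.510). As a percentage of the F0 level, the interval ran from −5.10% to 10.9% under TMM scaling. The count of MFN1 per count of MFN2 was 0.646, 0.663 and 0.756 in F0 and 0.520, 0.587 and 0.588 in F2. It was lower in every F2 library.

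OPA1 (ENSG00000198836, chr3:193593144-193697823, plus strand) encodes the dynamin of the inner membrane, which fuses it and keeps cristae narrow. It had 78.4, 77.5 and 80.5 CPM in F0 and 84.1, 83.5 and 86.7 CPM in F2. All F2 libraries were above all F0 libraries, but the log2 fold change of 0.11 (standard error 0.051, interval −0.0011 to 0.21) missed the threshold with an adjusted p of 0.168. With the library total alone as the scale it was 0.016 (adjusted p = 0.853). The 3 fusion genes summed to 205 ± 3.53 CPM in F0 and 204 ± 4.03 CPM in F2.

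VDAC1 (ENSG00000213585, chr5:133971915-134005133, minus strand) encodes the pore that is usually the most abundant of the family and had the highest level of the 10 genes in both populations. It had 370, 392 and 387 CPM in F0 and 317, 313 and 326 CPM in F2. Every F2 library was lower than every F0 library, with a gap wider than the range within F0. The log2 fold change was −0.26 with a standard error of 0.043 and an interval of −0.35 to −0.17 (adjusted p = 0.00022). A fall of at least this size was found in 13.5% of all tested genes. VDAC1 kept its call in all 13 other settings, between −0.29 and −0.25 when a library was left out.

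VDAC2 (ENSG00000165637, chr10:75210154-75231448, plus strand), the isoform known for holding the apoptosis effector BAK at the outer membrane, did not follow VDAC1. It had 280, 288 and 302 CPM in F0 and 292, 312 and 304 CPM in F2, and the populations overlapped. The log2 fold change was 0.060 with an interval of −0.035 to 0.16 (edgeR, adjusted p = 0.402), and its sign turned to −0.030 when libraries were scaled by their size alone. VDAC3 (ENSG00000078668, chr8:42391624-42405897, plus strand), the least abundant isoform here, had 184, 184 and 179 CPM in F0 and 173, 174 and 177 CPM in F2. Its F2 libraries were just below the F0 libraries, and the log2 fold change of −0.060 had an interval of −0.15 to 0.033 (edgeR, adjusted p = 0.391). By library size alone it was −0.15 and passed the test (adjusted p = 0.017).

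The 3 channel genes code for proteins of similar length in GENCODE, 283 residues for VDAC1 and VDAC3 and 294 for VDAC2. VDAC1 made up 44.8% ± 0.560 of their summed CPM in F0 and 40.04% ± 0.743 in F2 (SD, n = 3). VDAC2 made up 33.9% ± 0.780 and 38.0% ± 0.911, and VDAC3 21.3% ± 0.705 and 21.96% ± 0.198. The ratio of VDAC1 to VDAC2 counts was 1.32, 1.36 and 1.28 in F0 and 1.09, 1.004 and 1.07 in F2, so the excess of VDAC1 was close to nil in F2 replicate 2. The ratio of VDAC1 to VDAC3 was 2.01, 2.13 and 2.16 in F0 and 1.83, 1.80 and 1.84 in F2. The family summed to 855 ± 18.7 CPM in F0 and 796 ± 13.3 CPM in F2.

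**Figure D3:**
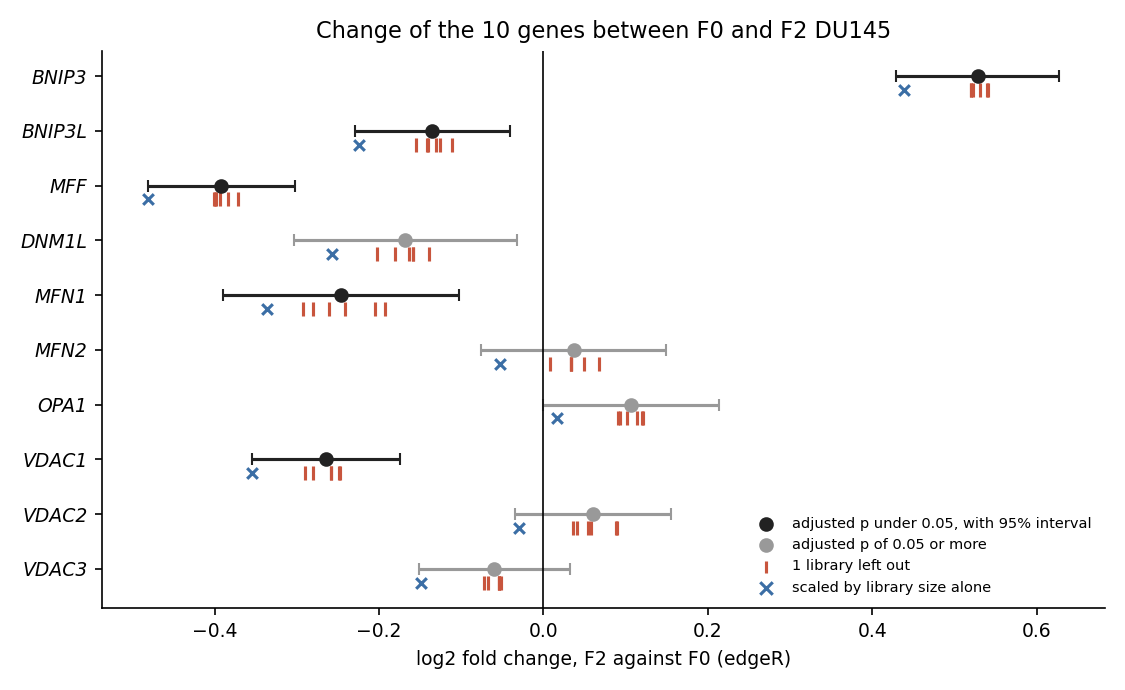
Log2 fold change of the 10 genes, F2 against F0, from edgeR (points, with 95% intervals; black for an adjusted p under 0.05, grey otherwise), with the values after leaving out each library (red ticks) and after scaling by library size alone (blue crosses). BNIP3 lies at 0.53 and MFF at −0.39, and the crosses of MFN2 and VDAC2 are on the other side of 0.

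In F0 the order of levels was VDAC1, MFF, VDAC2, BNIP3L, VDAC3, BNIP3, OPA1, MFN2, MFN1 and DNM1L, and OPA1 and MFN2 were the only neighbours whose libraries overlapped. In F2, VDAC2 stood above MFF, and the rest of the order was as in F0. BNIP3L and VDAC3 overlapped in F2, as did MFN1 and DNM1L.

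The genes whose pattern over the 6 libraries was nearest to these were found by the root mean square distance of log2 CPM from the F0 mean, among 8649 genes. Nearest to BNIP3 were UPP1 (distance 0.029), QSOX1 (0.030) and CD59 (0.031). MFF was nearest to NQO1 (0.024), PTTG1IP (0.026) and PGD (0.028). For VDAC1 they were SNHG14 (0.016), TSPAN14 (0.018) and CTNND1 (0.019). SNHG14 overlaps UBE3A on the opposite strand, and the use of strand in counting is not given in the sources used here, so its value is uncertain.

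Of the wider mitophagy list, which holds other receptors, the ubiquitin route and adaptors, 19 of 20 genes were tested, and 1 rose, 3 fell and 15 did not pass (21.1% against 18.2% of all genes). Their median log2 fold change was −0.064, against −0.0025 for all genes. SQSTM1, the adaptor p62, fell from 601 ± 10.5 to 449 ± 17.1 CPM (log2 fold change −0.42, standard error 0.043, adjusted p = 8.1e-07). PINK1, the kinase that marks damaged mitochondria, fell from 41.0 ± 0.277 to 33.8 ± 1.84 CPM (−0.28, standard error 0.068, adjusted p = 0.0073). SQSTM1 overlaps MRNIP and PINK1 overlaps PINK1-AS on the opposite strand, both with far fewer counts. TAX1BP1, another adaptor, fell by 0.13 on the log2 scale (adjusted p = 0.048), and USP15, a deubiquitinase, rose by 0.26 (adjusted p = 0.021). Without F0 replicate 2, F2 replicate 1 or F2 replicate 3, the list had 2 calls in place of 4.

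Among 24 tested genes of the autophagosome machinery, 1 rose, 3 fell and 20 did not pass (16.7% called against 18.2% of all genes). Their median was −0.023. GABARAPL1, a member of the LC3 and GABARAP family to which BNIP3 binds, fell from 14.3 ± 0.804 to 9.27 ± 0.496 CPM (log2 fold change −0.63, standard error 0.11, adjusted p = 0.00040). RB1CC1, the scaffold of the ULK1 complex, fell from 105 ± 3.81 to 78.3 ± 2.18 CPM (−0.43, adjusted p = 8.1e-06). Both subunits of the class III PI3-kinase complex that passed went opposite ways: PIK3R4 fell by 0.38 on the log2 scale (adjusted p = 0.027), and BECN1 rose by 0.21 (adjusted p = 0.014). The list had 2 calls without F0 replicate 2 or F2 replicate 3, against 4 with all libraries.

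Fission adaptors and regulators other than MFF and DNM1L had 1 rise, 1 fall and 16 genes not past the test. That was 11.1% called against 18.2% of all genes, with a median of 0.025. GDAP1, an outer membrane protein that promotes fragmentation, rose by 0.32 on the log2 scale (19.4 ± 2.91 to 24.1 ± 1.04 CPM, adjusted p = 0.033). MTFR1, a fission regulator, fell from 57.9 ± 5.34 to 48.9 ± 2.63 CPM (−0.24, adjusted p = 0.020). Neither passed without F0 replicate 3 or without F2 replicate 1, and the list had 1 call without F2 replicate 2 or F2 replicate 3.

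Of 17 genes for fusion, OPA1 processing and inner membrane shape, 0 rose, 3 fell and 14 did not pass. That was 17.6% called against 18.2% of all genes, with a median of 0.026. OMA1, the protease that cuts OPA1 under stress, fell from 10.7 ± 0.856 to 8.26 ± 0.678 CPM (log2 fold change −0.38, adjusted p = 0.038). CHCHD6, a subunit of the MICOS complex of the cristae, fell by 0.42 on the log2 scale (adjusted p = 0.043). STOML2, a cardiolipin-binding scaffold of the inner membrane, fell from 496 ± 11.3 to 434 ± 25.0 CPM (−0.19, adjusted p = 0.0068). The list had 1 call without F0 replicate 2 or F2 replicate 3.

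VDAC partners and outer membrane import genes had 4 rises, 3 falls and 16 genes not past the test among 23. That was 30.4% called against 18.2% of all genes, with a median of 0.065. Among all genes with a mean of at least 30 CPM 27% passed, and the list holds genes above and below that level. HK2, a hexokinase that binds VDAC, rose from 6.53 ± 1.73 to 13.7 ± 1.92 CPM (log2 fold change 1.06, standard error 0.16, adjusted p = 7.3e-05), and it was the only gene of the 7 lists to change 2-fold. HK1, the other hexokinase bound there, rose from 78.5 ± 1.54 to 96.4 ± 2.25 CPM (0.30, adjusted p = 0.00035). ITPR1, a calcium channel of the endoplasmic reticulum that is linked to VDAC1, fell from 8.13 ± 0.826 to 4.65 ± 0.207 CPM (−0.81, adjusted p = 0.00052). Its paralog ITPR3 rose by 0.34 on the log2 scale (adjusted p = 0.00023) but overlaps UQCC2 on the opposite strand and is uncertain.

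HIF targets other than BNIP3 had 9 rises, 2 falls and 13 genes not past the test among 24 (45.8% against 18.2% of all genes). Their median log2 fold change was 0.20, with 19 of 24 above 0. NDRG1, a stress-response gene induced by low oxygen, rose from 70.0 ± 0.997 to 133 ± 3.18 CPM (0.92, standard error 0.050, adjusted p = 1.15e-10). ADM, a secreted peptide, rose by 0.49 on the log2 scale (adjusted p = 0.0075), and PDK1, the kinase that restrains pyruvate dehydrogenase, by 0.42 (adjusted p = 0.011). BHLHE40, a transcriptional repressor, fell from 14.6 ± 1.73 to 10.4 ± 0.0494 CPM (−0.49, adjusted p = 0.0043). With libraries scaled by size alone, without TMM, the list summed to 5793 to 5855 CPM in F0 and 5218 to 5529 CPM in F2. That scale sets F2 lower against F0 than the TMM scale used for the single genes, so the sums cannot be set against their changes. The most abundant gene of the list, the glycolytic enzyme ENO1, fell by 0.16 on the log2 scale (adjusted p = 0.018) and was named after its value was seen. CA9, a common marker of HIF activity, had 0 counts in all 6 libraries, which allows up to 0.182 to 0.189 CPM per library (3 counts, counting error only). Without F2 replicate 1 the list had 7 calls in place of 11.

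Genes of mitochondrial biogenesis and mass had 2 rises, 1 fall and 13 genes not past the test among 16. That was 18.75% called against 18.2% of all genes, with a median of −0.044. SSBP1, which coats single-stranded mitochondrial DNA, rose from 213 ± 3.39 to 245 ± 7.28 CPM (log2 fold change 0.20, adjusted p = 0.0031). TFAM, which packages that DNA, fell from 82.2 ± 5.37 to 71.6 ± 4.19 CPM (−0.20, adjusted p = 0.027). ESRRA, a nuclear receptor that drives energy metabolism genes, rose by 0.26 (adjusted p = 0.0042) but overlaps the abundant TRMT112 on the opposite strand and is uncertain. The coactivator PPARGC1A had 0 counts in all libraries. The list had 5 calls without F0 replicate 1 or F2 replicate 2, against 3 with all libraries.

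**Figure D4:**
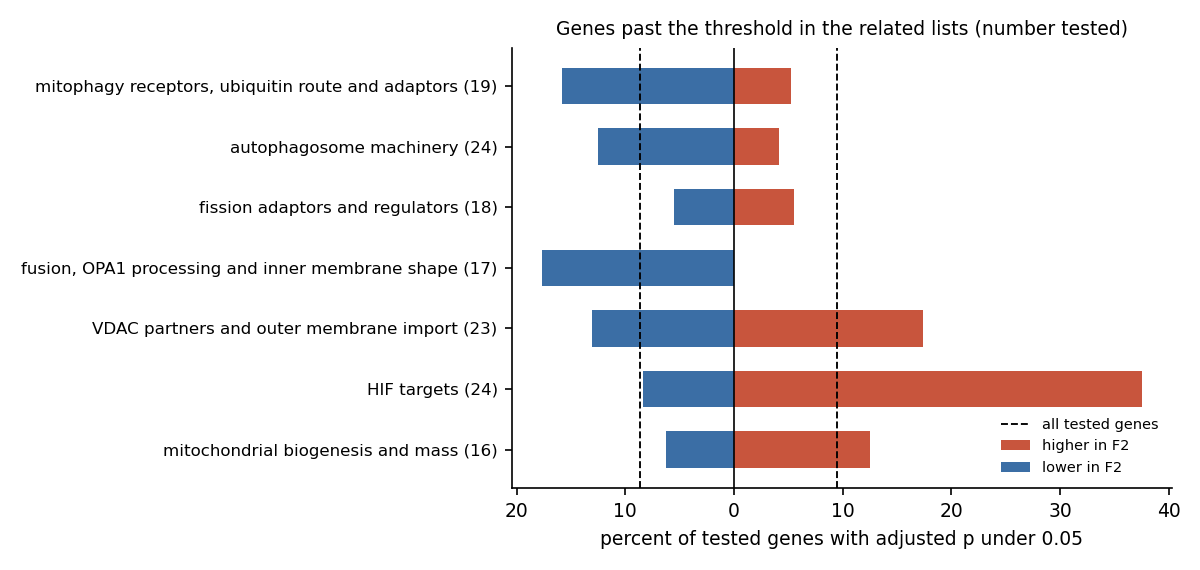
Percent of tested genes of each of the 7 related lists with an adjusted p under 0.05, lower in F2 (blue, to the left) and higher in F2 (red, to the right), with the number tested in brackets and dashed lines at the share of all tested genes (8.67% lower, 9.49% higher). The HIF targets reach 37.5% higher, and the fusion list has no gene past the threshold on that side. Of all genes with a mean of at least 30 CPM, 27% passed in either direction. The lists were chosen with earlier results of these data known.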

How the data were processed

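The authors aligned the QuantSeq reads and deposited raw counts per gene in 1 table for DU145, without normalization. The submitters' processing notes name GRCh38, STAR 2.5.2a and HTSeq 0.6.0. The annotation and the use of strand are not given in the sources used here. Columns were matched to samples by line, population and replicate number in the labels. Lines that name no gene stayed out of library sizes and tests, and the 92 spike-in RNAs had 0 counts. Of 60107 identifiers, 56104 had a symbol and 56531 were in GENCODE release 29.

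With R 4.3.3 and edgeR 4.0.16, filterByExpr removed genes with low counts. It asked for a total of 15 and a level of about 10 counts in as many libraries as the smaller population has, not in every library. TMM set the scale, and the quasi-likelihood F-test compared 3 F2 with 3 F0 libraries with no covariate. Standard errors are the absolute log2 fold change divided by the square root of F. An exact permutation test of 1 gene with 3 against 3 cannot go below 0.1 and was not used for calls. Alternatives were median-ratio size factors, library size alone, no filter, at least 10 counts in every library, DESeq2 1.42.0, a replicate block, mitochondrially encoded genes left out and each library left out in turn. Samples that share a replicate number did not deviate together (r of 0.010, −0.010 and 0.029), and no 2 libraries were duplicates. The procedure was tested on simulated data with 200 of 14316 genes changed. It recovered 22% of log2 changes of 0.25 and 52% of those of 0.5, over genes of all levels. Of its calls 7.41% were false, above the nominal 5%. Named genes are the 10, in each list at most 4 past the threshold with the largest change and a mean of at least 5 CPM, and for BNIP3, MFF and VDAC1 the 3 nearest in pattern with a mean of at least 10 CPM. The members and lists were chosen with earlier results of these data known. No test was run on a list. Some listed genes are not reported here. The deposited rat counts were not used here.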

Additional observations from a re-analysis of the deposited data

How the results depend on the processing

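BNIP3, MFF and VDAC1 kept their direction and their call in every alternative. Library size alone shifted the median of all genes to −0.092, gave 832 higher and 2805 lower calls among all genes and 6 lower calls among the 10, reversed MFN2 (−0.053) and VDAC2 (−0.030), and brought DNM1L (−0.26) and VDAC3 (−0.15) past the threshold. It moved list medians to −0.15 (mitophagy), −0.11 (autophagosome), −0.065 (fission), −0.064 (fusion), −0.025 (VDAC partners), 0.11 (HIF targets) and −0.13 (biogenesis), and list calls to 7 (autophagosome, fusion and biogenesis) and 4 (fission). BNIP3L missed the threshold without the filter (−0.13) and with DESeq2 (−0.13), and the fusion list had 1 call with DESeq2. Library size alone leaves out the TMM factors, which were 1.03 in each F0 library and 0.97 in each F2 library. This lowers the log2 fold changes of all genes by a near-equal amount. Why the other settings changed the calls was not tested. The replicate block gave 2867 calls among all genes against 2599, kept 5 among the 10, and gave BNIP3L −0.13 with an adjusted p of 0.036.

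Leaving out 1 library gave 1670 to 2621 calls among all genes, 761 to 1244 of them lower, with the fewest without F0 replicate 2 (803 lower without F2 replicate 1), and 3 to 5 calls among the 10, 2 to 4 of them lower. BNIP3L ranged from −0.16 to −0.11 and MFN1 from −0.29 to −0.19. List calls ranged from 2 to 5 (mitophagy, autophagosome and biogenesis), 0 to 2 (fission), 1 to 3 (fusion) and 7 to 12 (HIF targets). List medians ranged from −0.11 to −0.031 (mitophagy), 0.027 to 0.056 (VDAC partners), −0.071 to −0.014 (autophagosome), −0.0041 to 0.053 (fission), −0.026 to 0.027 (fusion) and −0.054 to −0.0014 (biogenesis). At this depth and with 3 libraries a population, the interval of DNM1L still ran from −19.0% to −2.19%. The ratios within a library have no test.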
